A study of Mus musculus with 24 samples.

Results

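The undivided dental mesenchyme of the bell stage (Bell-W) was compared with the mean of its lingual part (Bell-L) and its buccal part (Bell-B), each side given equal weight. The 9 libraries of these 3 groups, 3 per group, were taken by their labels from the 24 libraries of the study. All came from mandibular molar tooth germs (M1) of ICR mice, an outbred strain, at embryonic day 15. No genotype or treatment separated the groups, and Bell-W, Bell-L and Bell-B were dissected and sequenced as separate samples. Germs of the divided groups were cut along the lingual to buccal axis with a fine needle, and the epithelium was removed from the mesenchyme with dispase II. The question was which transcripts of the whole lay above or below both of its parts, since pooling 2 parts in any proportion gives a level between them. Sources differ on replication: the methods state triplicates and also 2 biological replicates, and nothing ties a library to an animal, so the p-values may measure only technical spread.

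The dental mesenchyme at the bell stage holds the dental papilla, which later forms dentin and pulp, and the dental follicle around it. Fgf and Bmp signals pass between this mesenchyme and the enamel knot of the epithelium. Outside the follicle lie the connective tissue, forming bone, vessels, nerves and muscle of the jaw, which carry their own transcripts: sarcomere and myogenic genes in muscle, fibrillar collagens in connective tissue, and claudins and cadherins in vessels.

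Library totals were between 26288515 and 29966544 counts in Bell-L, between 27647094 and 29921054 in Bell-B, and 24896180, 23095499 and 29233888 in Bell-W. A count of 3, used as the floor of a library, came to between 0.10 and 0.13 CPM (counts per 1000000 counts of the library, with TMM normalization in all values given for genes), and covers counting error only. The 3 Bell-W libraries differed from each other far more than the part libraries did: the biological coefficient of variation was 23.8% in Bell-W, 2.73% in Bell-L and 3.03% in Bell-B. The test used below takes 1 spread per gene for all 3 groups. Its standard errors (SE) and adjusted p-values therefore pool these unequal spreads and can understate the error of Bell-W. Each SE was derived from the test, as the size of the log2 difference over the square root of the F statistic. It was not estimated directly, and for genes with few Bell-W counts it can lie below the counting error. Epithelial and neuronal transcripts were high in Bell-W replicate 3, ribosomal RNA in replicates 1 and 2, and the female-specific RNA Xist in replicate 1. Xist was at 2886, 980 and 350 CPM in Bell-W replicates 1, 2 and 3 and between 1226 and 1341 CPM in the 6 part libraries. Bell-W and the parts differ also as dissections and libraries, so a property of the undivided tissue and one of the preparation cannot be told apart. Fewer cells of a type and less RNA per cell cannot be told apart either in these bulk samples.

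Of 21887 genes tested, 920 (4.2%) were higher in Bell-W than the mean of the parts and 1172 (5.35%) were lower, by edgeR's quasi-likelihood test. A call needed an adjusted p below 0.05 together with a log2 difference of more than 0.5 in size. Called against Bell-L and against Bell-B in the same direction, 398 genes (1.82%) lay above both parts and 575 (2.63%) below both. These 2 contrasts share the Bell-W libraries. The median log2 difference over all genes tested was 0.0075. With no fold threshold, 2252 genes were higher and 2468 lower at an adjusted p below 0.05. More genes pass at an unadjusted p below 0.05, and that share over all genes is not given here. All 3 Bell-W libraries lay above all 6 part libraries for 2074 genes (9.48%) and below them for 2117 (9.67%). Of the 398 genes above both parts 140 were called in each of the 9 fits that left out 1 library, and of the 575 below both 368 were. With a quality weight per group, an alternative added after the spread had been seen, the counts were 227 above both, 221 of them among the 398, and 429 below both, 392 of them among the 575. Without Bell-W replicate 3 they were 790 and 1081. Without any 1 of the 6 part libraries, between 225 and 262 genes were above both. Against the mean of the parts taken on the linear scale, 469 genes were higher.

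**Figure D1:**
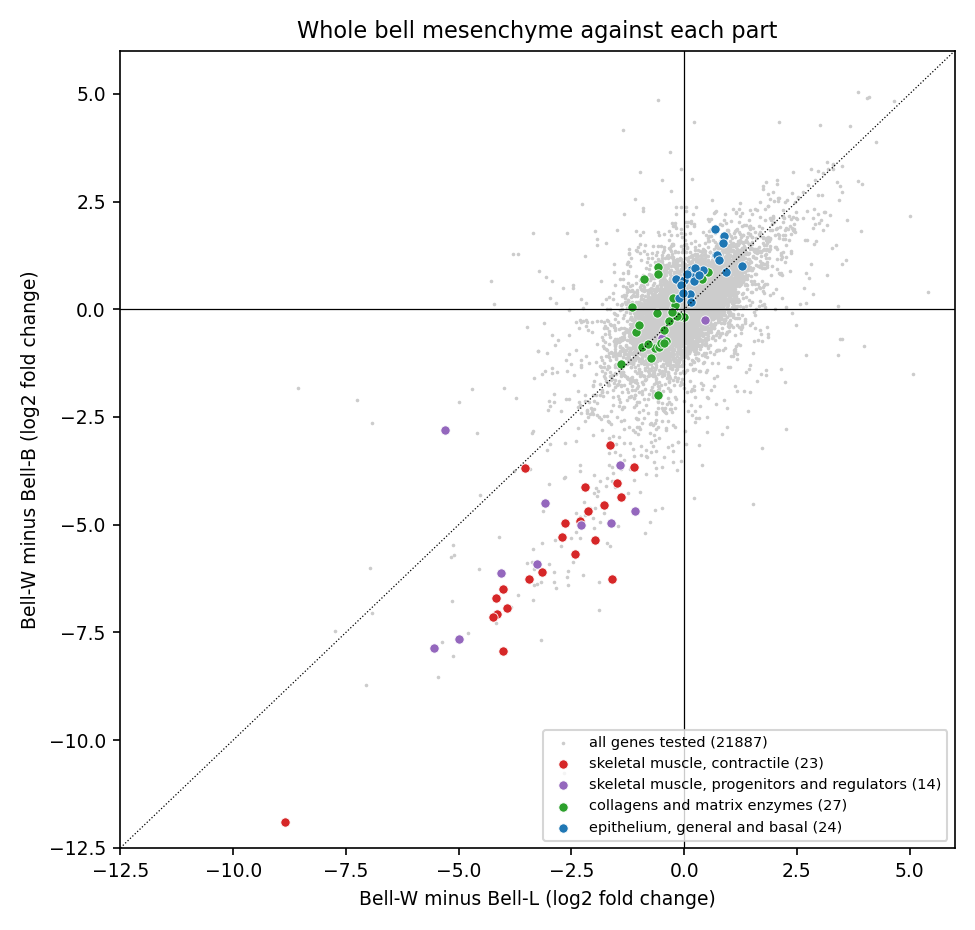
Log2 fold change of Bell-W over Bell-L (horizontal axis) and over Bell-B (vertical axis) for all 21887 genes tested, grey points, with the members of 4 gene lists coloured. The 23 contractile muscle genes all lie in the lower left, below both parts, further down against Bell-B than against Bell-L for nearly all, while the epithelial genes lie near or above 0 on both axes.

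Genes below both parts were led by skeletal muscle. All 23 contractile genes tested, which build the sarcomere, the neuromuscular receptor and the fusion machinery, were lower in Bell-W and below both parts, with a median log2 difference of -3.93 against 0.0075 over all genes. Their summed level was between 192 and 199 CPM in Bell-L, between 1510 and 1556 in Bell-B, and 31.2, 25.3 and 39.3 in Bell-W. All 23 kept their call in every fit that left out 1 library, and with at least 10 counts asked of every library 13 could be tested and called. Myh3, the embryonic myosin heavy chain, was at 18.9, 17.8 and 18.4 CPM in Bell-L, 275, 268 and 284 in Bell-B, and 0.823, 0.681 and 1.76 in Bell-W. The log2 difference from the mean of the parts, taken on the log2 scale, was -5.97 ± 0.20 (SE, adjusted p = 1e-07), and the groups did not overlap. Actc1, the cardiac actin used in embryonic muscle, was at 49.9, 48.3 and 47.6 CPM in Bell-L, 382, 398 and 394 in Bell-B, and 3.84, 1.23 and 4.25 in Bell-W (log2 -5.44 ± 0.26, adjusted p = 1.1e-06). Tnni1, the slow skeletal troponin I, was at 4.25 to 4.56 CPM in Bell-L, 31.4 to 35.9 in Bell-B and 0.170 to 0.265 in Bell-W (log2 -5.70 ± 0.14). In each of these genes the order was Bell-W, Bell-L, Bell-B from low to high.

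Tnnt2, a troponin T, differed by log2 -4.86 ± 0.23, and Mymk, which drives myoblast fusion, by -5.61 ± 0.48 with 0 counts in 2 of the 3 Bell-W libraries. The giant sarcomere protein gene Ttn (log2 -3.66 ± 0.10) and the muscle intermediate filament gene Des (-3.81 ± 0.11) differed less. Mybph, a myosin binding protein, had no count in any Bell-W library, between 1.95 and 2.35 CPM in Bell-L and between 16.3 and 18.0 in Bell-B. Against the floor of 3 counts per library it was at least 18.3-fold lower in Bell-W than in Bell-L and at least 151-fold lower than in Bell-B, and 49.9% of its exon length overlaps another gene. Mybpc1, the slow myosin binding protein C, departed from the side order of the others. It was at 34.9 to 36.5 CPM in Bell-L, 17.6 to 18.9 in Bell-B and 0.170 to 0.332 in Bell-W (log2 -6.49 ± 0.13, adjusted p = 7.8e-09).

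The myogenic regulators followed. Of 14 progenitor and regulator genes tested, 11 were lower, 3 were not called and 8 lay below both parts, with a median of -3.47. The median was -3.09 with genes of no Bell-W count set to the floor. Their summed level differed less, at 200, 175 and 183 CPM in Bell-W. It was between 228 and 233 CPM in Bell-L and between 390 and 400 in Bell-B. Myog, the factor of muscle differentiation, was at 18.7, 15.1 and 16.6 CPM in Bell-L, 69.5, 67.7 and 73.0 in Bell-B, and 1.14, 0.468 and 1.33 in Bell-W (log2 -5.09 ± 0.20, adjusted p = 2.9e-07). Pax7, which marks satellite cell precursors, was at 2.18 to 2.99 CPM in Bell-L, 14.6 to 18.0 in Bell-B and at most 0.133 in Bell-W, where the 3 libraries held 6 counts together (log2 -6.33 ± 0.34). Myod1, the commitment factor, differed by log2 -4.59 ± 0.28, Cdh15, the muscle cadherin, by -3.65 ± 0.14, and Msc, a repressor made in head muscle precursors, by -2.51 ± 0.12. No Bell-W library reached a part library for any of these 5 genes.

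The promoters of 4 of the contractile genes below both parts are given because these genes moved together and muscle regulators of the Myod family bind E-boxes. The sequences are RefSeq windows on GRCm38.p6, another build than the GRCm39 of the counts, from 250 bases before to 50 after the transcription start. They read 5′ to 3′ on the strand of the gene, and capitals mark the E-box letters CAGCTG, which are the same on both strands. The windows are chr1:135799171-135799470 (+) for Tnni1, chr1:134193198-134193497 (+) for Mybph, chr2:73580289-73580588 (-) for the acetylcholine receptor subunit gene Chrna1 and chr1:75360042-75360341 (+) for Des.
Tnni1: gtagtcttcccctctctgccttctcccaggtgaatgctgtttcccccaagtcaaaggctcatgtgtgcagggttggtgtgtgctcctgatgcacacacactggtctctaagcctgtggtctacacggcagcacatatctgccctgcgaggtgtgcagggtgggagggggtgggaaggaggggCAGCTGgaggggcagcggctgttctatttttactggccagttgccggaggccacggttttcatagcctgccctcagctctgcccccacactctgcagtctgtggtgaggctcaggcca
Mybph: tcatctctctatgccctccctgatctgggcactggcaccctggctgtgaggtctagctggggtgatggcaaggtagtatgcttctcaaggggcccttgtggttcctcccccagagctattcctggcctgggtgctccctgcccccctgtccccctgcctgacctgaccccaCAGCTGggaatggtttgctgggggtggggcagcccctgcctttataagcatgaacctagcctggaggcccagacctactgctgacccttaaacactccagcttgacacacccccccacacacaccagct
Chrna1: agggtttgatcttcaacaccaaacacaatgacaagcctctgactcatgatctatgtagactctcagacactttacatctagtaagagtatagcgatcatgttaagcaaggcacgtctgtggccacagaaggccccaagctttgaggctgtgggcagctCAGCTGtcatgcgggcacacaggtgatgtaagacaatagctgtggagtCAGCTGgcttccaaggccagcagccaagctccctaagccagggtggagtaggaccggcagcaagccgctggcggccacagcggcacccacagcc
Des: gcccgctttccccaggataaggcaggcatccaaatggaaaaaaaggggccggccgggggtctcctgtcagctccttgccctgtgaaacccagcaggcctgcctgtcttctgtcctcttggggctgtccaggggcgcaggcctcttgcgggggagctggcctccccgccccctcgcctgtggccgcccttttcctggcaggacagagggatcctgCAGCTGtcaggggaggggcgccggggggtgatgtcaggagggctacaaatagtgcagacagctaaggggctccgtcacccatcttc
These letters occurred 2 times in the window of Chrna1 and 1 time in each of the others. The table held windows for 17 of the 23 contractile genes, and 10 of their 20 windows held the motif, against 16.3% of all 32851 windows. The 4 genes shown are among the 9 of these 17 that hold the motif. It was in 22.9% of the 507 windows of genes below both parts, in 13.3% of the 150 of genes above both, and in 0 of the 7 of the progenitor list. A match describes the letters only.

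Some connective tissue genes were lower in Bell-W. Among the 10 genes below both with the largest differences at an average log2 CPM of at least 2, the one outside muscle was Dpt (chr1:164624213-164651835 on GRCm39), which encodes the matrix protein dermatopontin. It was at 100, 97.5 and 97.5 CPM in Bell-L, 110, 104 and 110 in Bell-B, and 0.510, 0.724 and 1.13 in Bell-W. The parts were close to each other and Bell-W lay far below both (log2 -6.99 ± 0.15, adjusted p = 7.8e-09). Of 27 collagens and matrix enzymes, 13 were lower and 2 higher, with 9 below both parts, 1 above both and a median of -0.47. The list summed to between 28958 and 32177 CPM in the parts and to 23245, 25085 and 20184 in Bell-W. Without the 100 most abundant genes, several of them collagens, 5 members were called lower. Members among those 100 were removed and not tested again.

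Col1a2, a chain of type I collagen, was at 5193 to 5374 CPM in Bell-L, 5298 to 5485 in Bell-B and 2862 to 2960 in Bell-W (log2 -0.86 ± 0.05, adjusted p = 3.4e-06). Lox, which crosslinks collagen, was at 335, 364 and 374 CPM in Bell-L, 333, 335 and 317 in Bell-B, and 146, 138 and 123 in Bell-W (log2 -1.34 ± 0.07). Both genes were level between the sides and lower in every Bell-W library. Fn1, fibronectin (log2 -0.80 ± 0.05), and Dcn, the proteoglycan decorin (-0.72 ± 0.05), lay below both parts, whereas Timp3, a metalloproteinase inhibitor (-0.69 ± 0.05), was lower than the mean but only -0.37 from Bell-B. Of 10 tendon genes 2 were below both: Kera, a corneal and tendon proteoglycan (log2 -3.57 ± 0.11), and Col14a1, a collagen of fibril surfaces, at 94.5 to 97.1 CPM in Bell-L, 275 to 281 in Bell-B and 25.2 to 38.3 in Bell-W (log2 -2.42 ± 0.12). Of 13 cartilage genes 3 were lower and below both (6 were lower without Bell-W replicate 3), with a median of -0.25, among them Acan, aggrecan (-1.85 ± 0.15), and Col9a2 (-1.35 ± 0.09).

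**Figure D2:**
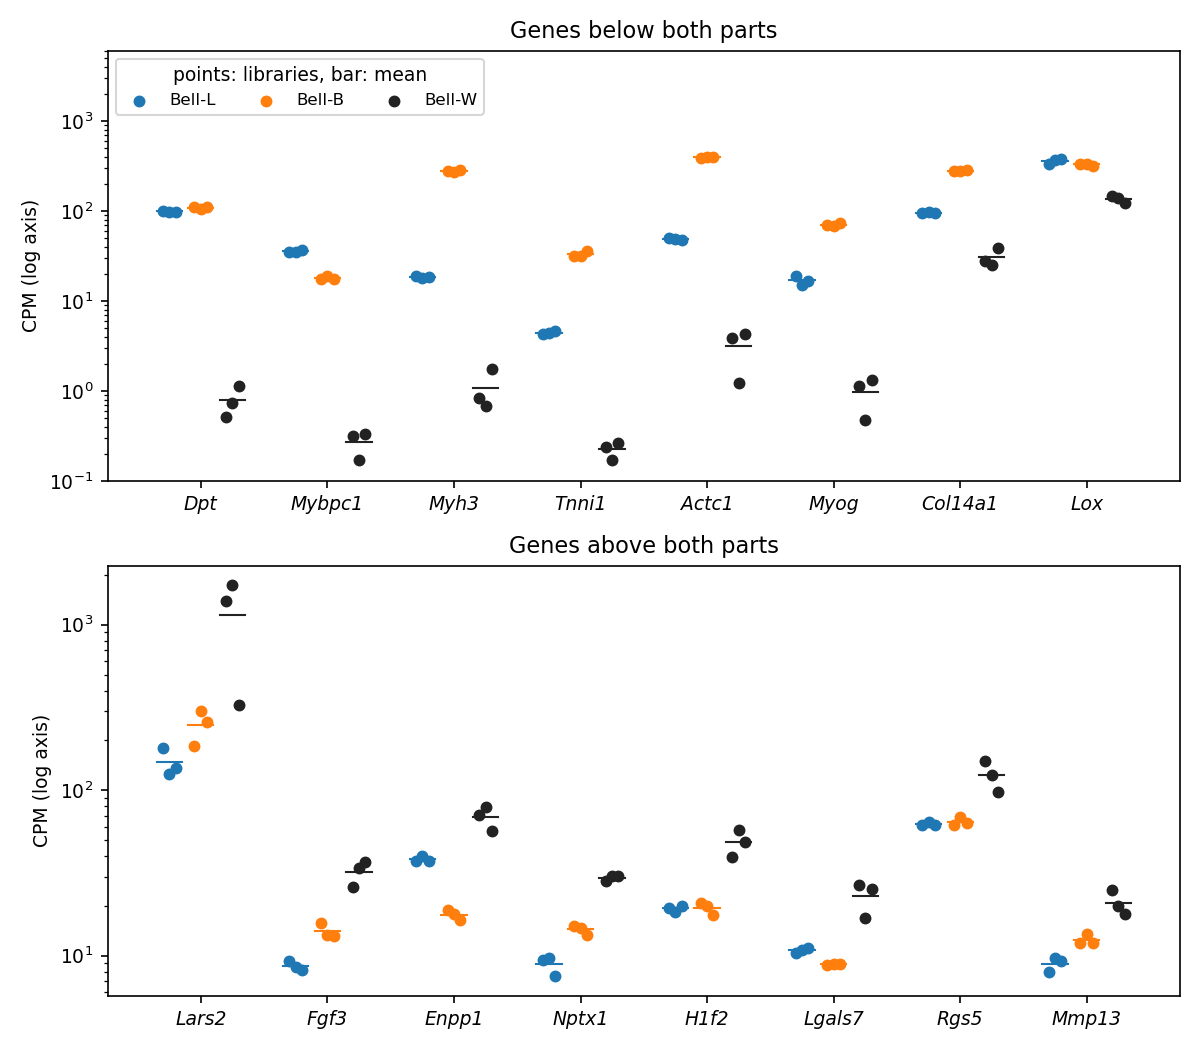
CPM on a log axis of 8 genes below both parts (upper panel) and 8 above both (lower panel) in the 3 Bell-L, 3 Bell-B and 3 Bell-W libraries. Points are libraries and bars are means; Dpt fell from about 100 CPM in both parts to between 0.510 and 1.13 in Bell-W, and Lars2 shows 1 Bell-W library, replicate 3, close to the parts.

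Nerve and vessel genes were below the parts in smaller numbers. Of 12 Schwann cell and glia genes 6 were lower and 3 below both, with a median of -0.78, among them Gfra3, a receptor of glial ligands (log2 -1.99 ± 0.15), and Foxd3, a neural crest factor (-1.99 ± 0.37). The call of Foxd3 was lost with a quality weight per group (adjusted p = 0.19). Summed, the glial list was at 146, 161 and 238 CPM in Bell-W replicates 1, 2 and 3 and between 188 and 223 in the parts. Replicate 3 thus lay above all part libraries. The largest difference of a member was log2 2.50, which was not called. Without replicate 3, 7 glial genes were lower and 0 higher, with a median of -1.05. Of 14 neuronal genes 4 were lower, 3 of them below both, and 2 were higher. Isl1, a homeobox factor of sensory and motor neurons and of facial mesenchyme, was at 15.4 to 16.1 CPM in Bell-B and below 1 CPM in all Bell-L and Bell-W libraries (log2 -4.11 ± 0.36). The neurofilament gene Nefl differed by -2.05 ± 0.38. The summed neuronal level was 286 CPM in Bell-W replicate 3 and 56.7 and 56.0 in the other Bell-W libraries, against 97.7 to 141 in the parts. Without replicate 3, 9 neuronal genes were lower and 0 higher.

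Of 19 endothelial genes 5 were lower, 2 of them below both, and 0 higher, with a median of -0.37. These were led by Sox18, a factor of vessel formation (log2 -0.96 ± 0.08), and Cldn5, the tight junction claudin of vessels (-0.79 ± 0.11), while Egfl7, secreted by endothelium (-0.53 ± 0.05), was only -0.38 from Bell-B. Among 13 smooth muscle and pericyte genes, 4 were lower and 1 higher. Acta2, smooth muscle actin, was at 51.1 to 55.1 CPM in Bell-L, 195 to 203 in Bell-B and 33.4 to 44.5 in Bell-W (log2 -1.41 ± 0.08), and Myh11, the smooth muscle myosin, differed by -0.74 ± 0.11. Rgs5, a pericyte gene, went the other way, at 61.4 to 64.4 CPM in Bell-L, 61.6 to 69.0 in Bell-B and 150, 124 and 97.4 in Bell-W (log2 0.96 ± 0.11, adjusted p = 0.00026). Every Bell-W library exceeded every part library for Rgs5. Of 18 macrophage genes 0 were called by edgeR, with 8 at an unadjusted p below 0.05, and 0 by DESeq2. The 8 are given without the share over all genes. Of 14 erythroid genes 2 were higher (0 without Bell-W replicate 1 or replicate 2, and 6 without replicate 3), among them the globin Hbb-bt at log2 0.54 ± 0.09, which fell under the fold threshold without Bell-W replicate 1 (0.46) or replicate 2 (0.48).

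**Figure D3:**
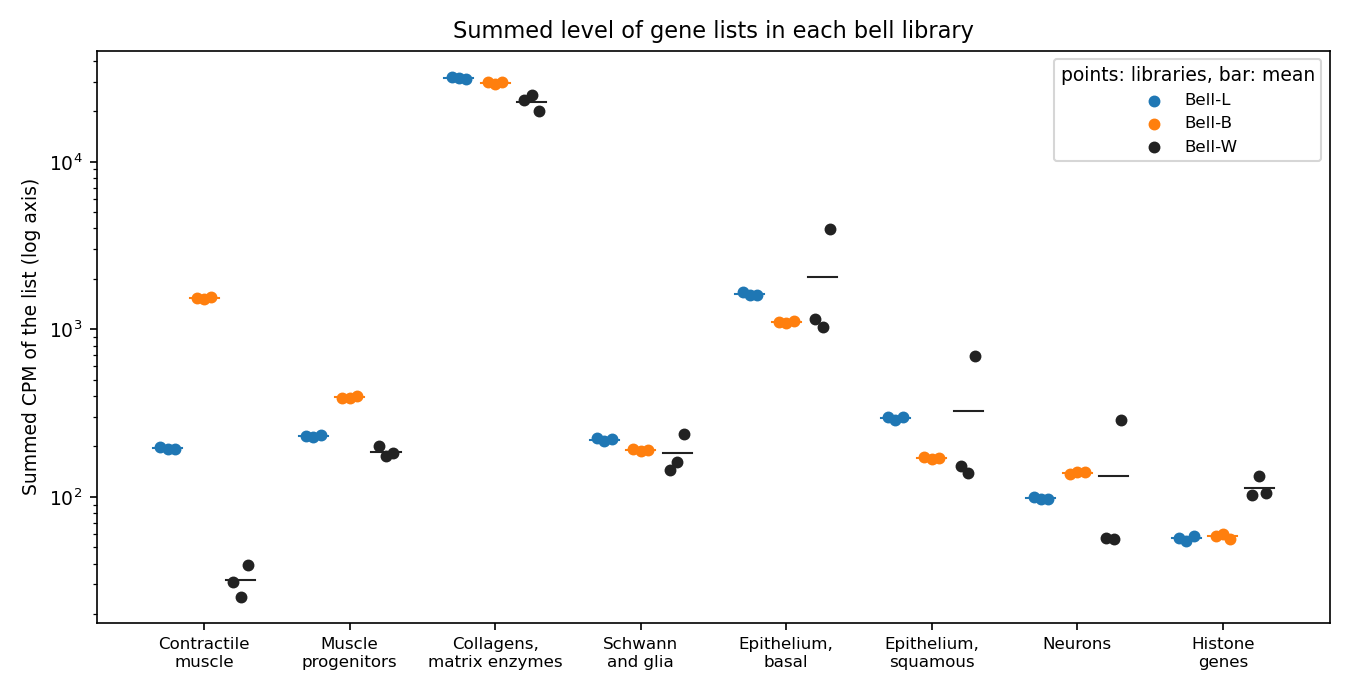
Summed CPM on a log axis of 8 gene lists in each of the 9 bell libraries, with points for libraries and bars for group means. Contractile muscle genes sum to between 25.3 and 39.3 CPM in Bell-W, under both parts, and Bell-W replicate 3 stands apart in both epithelial lists and in the neuronal list.

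Epithelial transcripts were detected in all groups although the epithelium had been removed. Of 24 general and basal epithelial genes 4 were higher in Bell-W, 0 lower and 1 above both, with a median of 0.55. The list summed to 1150, 1035 and 3952 CPM in Bell-W, to between 1595 and 1671 in Bell-L, and to between 1090 and 1119 in Bell-B, and Epcam, Cdh1, Krt5 and Krt14 were above 0 in every library. Without Bell-W replicate 3 the direction turned, with 2 members higher, 6 lower and a median of -0.26. Col17a1, a hemidesmosome collagen (log2 1.29 ± 0.38, adjusted p = 0.036), was at 196 CPM in replicate 3 and at 57.1 and 43.4 in the others, and differed by 0.31 without replicate 3. Krt6a, of stratified epithelium, was at 117 CPM in replicate 3 against 13.4 and 14.0 (log2 1.95 ± 0.58, adjusted p = 0.038), and by 0.13 without it. Both calls were also lost without any 1 of the part libraries, with adjusted p between 0.073 and 0.083. Krt18, the keratin of simple epithelia, was above both parts in every Bell-W library (log2 0.89 ± 0.13). Of 16 squamous genes 1 was higher, and 7 were lower without replicate 3. Of 15 enamel knot and dental epithelium genes 1 was higher and 1 lower, with a median of 0.26. Without replicate 3, 1 was higher and 5 lower, with a median of -0.37. The higher one, Fgf20, a signal of the enamel knot, was at 1.37, 0.809 and 0.962 CPM in Bell-W and at most 0.597 in the parts (log2 1.62 ± 0.33), and lost its call with a quality weight per group (adjusted p = 0.061). The part of epithelial cells in the levels of Krt18 and Fgf20 was not tested.

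Of 22 dental mesenchyme factors and signals 3 were higher and 1 lower, 2 of them above both and 1 below both, with a median of 0.10. Fgf3 (chr7:144391820-144398173 on GRCm39), a signal of the papilla to the epithelium, was at 9.28, 8.55 and 8.24 CPM in Bell-L, 15.7, 13.4 and 13.1 in Bell-B, and 25.9, 33.6 and 37.0 in Bell-W. All Bell-W libraries exceeded all part libraries (log2 1.54 ± 0.11, adjusted p = 1.3e-05). Tfap2b, a neural crest factor, was at 488, 489 and 340 CPM in Bell-W and between 239 and 305 in the parts (log2 0.70 ± 0.10). Pitx1, a homeobox factor of the jaw, was at 45.1, 46.7 and 102 CPM in Bell-W, 163 to 181 in Bell-L and 121 to 139 in Bell-B (log2 -1.20 ± 0.24, adjusted p = 0.0063, 0.056 against the linear mean). All Bell-W libraries were outside the parts for these 3 genes.

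Among 15 bone genes 3 were higher and 2 lower, with 1 above both, 2 below both and a median of -0.05. The 2 lower members, Col1a2 among them, lay below both parts. The list summed to 6772, 6990 and 8007 CPM in Bell-W and to between 11079 and 12247 in the parts. Mmp13, a collagenase, was at 24.8, 20.1 and 18.0 CPM in Bell-W and between 7.99 and 13.5 in the parts, above both (log2 0.98 ± 0.11, adjusted p = 0.00021). Spp1, osteopontin (log2 1.18 ± 0.12), and Notum, a Wnt inhibitor (0.70 ± 0.09), exceeded the mean but Bell-B by only 0.38 and 0.37.

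Genes above both parts outside these lists included brain and secreted proteins. The neuronal pentraxin Nptx1, a synapse organizer, was at 9.40, 9.67 and 7.52 CPM in Bell-L, 15.1, 14.7 and 13.3 in Bell-B, and 28.1, 30.4 and 30.3 in Bell-W (log2 1.39 ± 0.08, adjusted p = 4.1e-06). Enpp1, which makes pyrophosphate, the inhibitor of mineral, was at 37.1 to 40.2 CPM in Bell-L, 16.5 to 18.8 in Bell-B, and 70.4, 78.9 and 56.3 in Bell-W (log2 1.40 ± 0.09). Nptx2, the paralog of Nptx1 (log2 1.77 ± 0.20), Trim9, a brain ubiquitin ligase (1.48 ± 0.14), Syn1, the synaptic vesicle protein synapsin (1.95 ± 0.24), and Lgals7, an epithelial galectin (1.23 ± 0.12), were also above both. Lars2, the mitochondrial leucyl-tRNA synthetase, was at 1384, 1733 and 328 CPM in Bell-W and between 126 and 299 in the parts (log2 2.59 ± 0.39). Rn7sk, a small nuclear RNA that holds elongation factor P-TEFb, was at 11.0, 10.1 and 4.84 CPM in Bell-W and between 1.16 and 4.30 in the parts (log2 2.16 ± 0.32). For both, replicates 1 and 2 stood above replicate 3, the order of the ribosomal RNA gene Rn18s-rs5, which was at 12716, 14104 and 2159 CPM in Bell-W and between 1073 and 2999 in the parts. The part of ribosomal RNA carry-over in these values was not tested.

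Of 32 replication-dependent histone genes, whose transcripts mostly lack a poly(A) tail, 13 were higher, 12 of them above both, and 0 lower, with a median of 0.97. H1f2, a linker histone, was at 18.4 to 20.1 CPM in Bell-L, 17.7 to 20.7 in Bell-B, and 39.5, 57.7 and 48.9 in Bell-W (log2 1.33 ± 0.10, adjusted p = 2.7e-05), and H2bc8, H4c9 and H2bc4 differed by 1.48 ± 0.16, 1.12 ± 0.15 and 0.90 ± 0.13. Their share of all counts was 0.0116% ± 0.0016 (SD, n = 3) in Bell-W and 0.00567% ± 0.00024 in the 6 part libraries. All 3 Bell-W shares exceeded all part shares, and the exact permutation test over 84 arrangements gave its smallest two-sided p, 0.024, or 0.071 adjusted over 3 shares. S phase genes, which serve DNA replication, summed to 1853, 1857 and 1941 CPM in Bell-W and to between 1520 and 1747 in the parts. Of 23 tested, 1 passed the fold threshold (Rfc4, a clamp loader, log2 0.63 ± 0.07) and 17 had an unadjusted p below 0.05. All Bell-W libraries lay above all part libraries for 7 of the 23, against 9.48% of all genes tested, and the median was 0.22. Of 24 G2 and mitosis genes 0 were called by edgeR, with 10 at an unadjusted p below 0.05, and 0 by DESeq2, among them Top2a at 0.40 ± 0.06. The 17 and the 10 are given without the share over all genes.

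The share of mitochondrially encoded transcripts was 3.67% ± 0.38 in Bell-W and 3.55% ± 0.27 in the parts (exact p = 0.57), and -0.073 percentage points separated them without Bell-W replicate 3. Of 22 mitochondrial genes 5 were higher, 3 of them transfer RNAs above both such as mt-Ty (log2 2.48 ± 0.27) and mt-Te (1.65 ± 0.22). Ribosomal RNA from Rn18s-rs5 took 0.986% ± 0.66 of the counts in Bell-W and 0.177% ± 0.076 in the parts (exact p = 0.071). Of 79 ribosomal protein genes 6 were higher and 0 lower, with a median of 0.18, among them Rpl26 at 0.63 ± 0.07 (adjusted p = 0.13 in the fit of all 24 libraries). By kind, 197 of the 398 genes above both parts (49.5%) were annotated pseudogenes and 144 (36.2%) protein-coding, against 17.8% and 69.2% of all genes tested. Genes above both had a median exon length of 1054 bases against 3251 over all genes, while 85.2% of the 575 genes below both were protein-coding. Genes above both were also mostly of low level, with a median log2 CPM of 0.53, against 3.72 over all genes and 3.39 for genes below both. Reads that fit both a pseudogene and its parent were left out of the counts, so the pseudogene counts are uncertain.

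Of 24 immediate early and heat shock genes 6 were lower, 5 of them below both, and 0 higher. The list summed to 4812, 5993 and 8430 CPM in Bell-W and to between 7908 and 8847 in the parts, so replicate 3 lay within the parts. Without replicate 3, 14 were lower and 1 higher, and without replicate 1, 4 were lower and 2 higher. Hspa1a, an inducible heat shock protein, was at 53.3 to 60.3 CPM in Bell-L, 32.1 to 38.6 in Bell-B, and 3.25, 6.39 and 11.4 in Bell-W (log2 -2.69 ± 0.29), close to its twin copy Hspa1b (-2.61 ± 0.27). Reads that fit both copies were left out of the counts, so both levels are uncertain. Klf4, an early response factor, differed by -0.89 ± 0.15. Meg3, an imprinted long noncoding RNA, was at 1819 to 1875 CPM in Bell-L, 1531 to 1589 in Bell-B, and 836, 792 and 739 in Bell-W (log2 -1.10 ± 0.06, adjusted p = 1.4e-06). Its neighbours Rian (-0.95 ± 0.07) and Mirg (-1.27 ± 0.12) lay below both too, in a list of 7 nuclear RNAs with 3 below both and 1 higher. The higher one, Snhg11, was at 24.2 CPM in Bell-W replicate 3 and at 0.470 and 0.383 in the others (log2 3.28 ± 1.00), and at -1.01 without replicate 3.

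Of 5 Hox genes tested 3 were below both: Hoxd8 (log2 -1.70 ± 0.15), Hoxd4 (-3.27 ± 0.49) and Hoxd9. These pattern the body axis. Hoxd9 was at 0.585 to 0.635 CPM in Bell-L and 0.703 to 1.20 in Bell-B, and was at 0 in 2 Bell-W libraries and under the floor in the other. For Hoxd4, 52.3% of the exon length overlaps other genes, and the call was lost with a quality weight per group (adjusted p = 0.12). Of 5 sex-linked transcripts 1, Ddx3y, was below both (log2 -0.56 ± 0.09), and fell under the fold threshold without Bell-W replicate 1 (-0.47). Xist did not pass the test (0.14 ± 0.47, adjusted p = 0.87). In hypoxia genes 1 of 22 was lower (Ndrg1, -0.68 ± 0.12), in cholesterol genes 1 of 22 (Insig1, -0.65 ± 0.06), in interferon and MHC genes 3 of 20 were higher and 1 lower, and of 3 melanocyte genes 0 were called by edgeR or DESeq2 and 0 had an unadjusted p below 0.05. B2m, the reference gene of the study's RT-qPCR, differed by -0.13 ± 0.06 (adjusted p = 0.18).

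Sides of the tooth germ were set by Bell-B against Bell-L in the same fit, which shares libraries with the comparisons above, so the positions are descriptions. Of 816 buccal genes 165 (20.2%) lay below both parts and 9 above, and Bell-W stood near the lingual level, with medians of 0.080 against Bell-L and -1.05 against Bell-B. Of 930 lingual genes 49 (5.27%) lay below both and 7 above, with medians of -0.57 against Bell-L and 0.35 against Bell-B. Of 20141 genes without a side call 361 (1.79%) lay below both and 382 above. Of 14 side genes that the study named, which were chosen on these samples and are no independent evidence, 8 were lower in Bell-W and 4 below both, namely Myod1, Myog, Hoxd8 and Hoxd4. The others that were lower were Bmp2, a growth factor (-0.83 ± 0.07), Dll1, a Notch ligand (-0.94 ± 0.13), Aspn, asporin (-0.54 ± 0.12, and -0.40 without Bell-W replicate 3), and Hand2, a jaw patterning factor. Hand2 was at 1.91 to 3.17 CPM in Bell-L, at most 0.170 in Bell-B, and at 1 count in the 3 Bell-W libraries together, and its adjusted p was 0.0098 (0.089 without Bell-B replicate 3, 0.094 in the fit of all 24 libraries). Postn (0.12, adjusted p = 0.52), Col8a1 (0.20, 0.25), Runx1 (0.34, 0.026), Agt (0.09, 0.88), Ostn (-1.17, 0.069) and Lefty1 (-0.77, 0.43) were not called in the edgeR fit used throughout. Ostn, osteocrin, was called in 5 of 17 alternatives. It was called by DESeq2 (adjusted p = 0.025), against the linear mean (-2.30, adjusted p = 0.025) and without Bell-W replicate 1 (-1.96, adjusted p = 0.0028). The edgeR fits with no filter on low counts (adjusted p = 0.039) and of all 24 libraries (adjusted p = 0.030) called it too.

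The same comparison at the cap stage, embryonic day 13, asked whether these differences belong to the bell stage. At the cap 1194 genes lay above both parts and 1652 below both. Of the 398 genes above both at the bell, 201 were above both at the cap too. Of the 575 below both at the bell, 230 were below both at the cap. The difference between the stages was called higher at the bell for 1649 of 22836 genes (7.22%) and lower for 886 (3.88%), in 1 fit of 18 libraries. With a quality weight per group these counts were 763 and 543. Contractile muscle genes were further below the parts at the bell than at the cap for 21 of 23. Their median was -1.42 at the cap, where 19 of the 23 were lower and 2 higher. Over all 22836 genes, 2464 were higher at the cap than the mean of the parts and 2936 lower, more than at the bell. Progenitor genes were further below for 7 of 14. In the other direction stood collagens (15 of 27), endothelium (16 of 19), macrophages (13 of 18), interferon genes (15 of 20) and immediate early genes (15 of 24), whose cap medians were -0.86, -1.20, -1.02, -0.97 and -1.46. Histone genes, with a cap median of 1.34 and 25 of 38 higher there, differed between the stages for 1 gene in each direction. Their cap excess lay mostly in 1 library: the list summed to 152, 62.3 and 52.0 CPM in Cap-W replicates 1, 2 and 3. It summed to between 46.3 and 53.4 CPM in Cap-L and between 43.6 and 44.5 in Cap-B. Cap-W replicate 1 also stood apart in mitochondrially encoded transcripts, at 92616 CPM against 28283 and 29871 in the other Cap-W libraries. For Fgf3 the sign turned: Cap-W held 0.226, 0.981 and 0.642 CPM, Cap-L 5.41 to 7.11 and Cap-B 1.52 to 1.81, and the stage difference was 3.78 ± 0.29 (adjusted p = 1.9e-07). Cap-W and Cap-L are other dissections than the bell groups, and stage and dissection cannot be told apart.

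**Figure D4:**
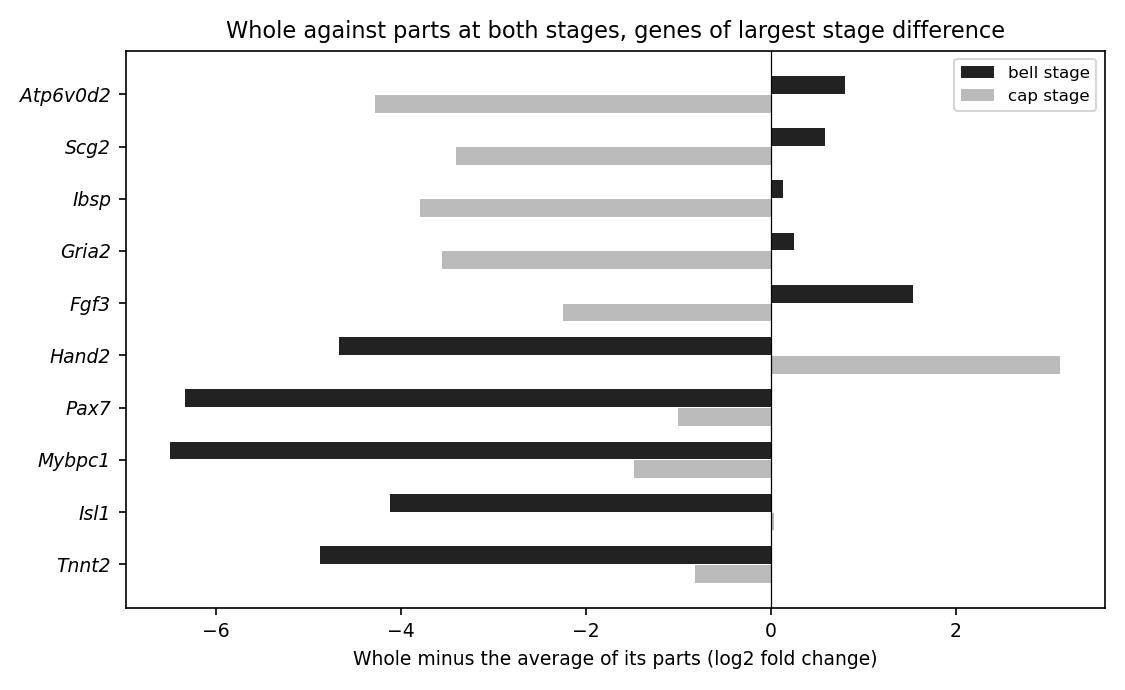
Log2 difference of the whole from the mean of its parts at the bell stage (black) and at the cap stage (grey) for the 5 genes of largest stage difference in each direction. Pax7, Mybpc1 and Tnnt2 are further below the parts at the bell, and Fgf3 is above the parts at the bell and below them at the cap.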

How the data were processed

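RNA of 24 libraries was sequenced. The authors deposited raw counts per gene in 1 table, and its header names featureCounts 2.0.0, in paired mode over exons of Ensembl 107 on GRCm39, with no strand setting. Their paper names Cutadapt and STAR, and the submitters' processing notes name Trimmomatic 0.39, Bowtie 1.2.3 and Subread 2.0.3. Which trimmer and aligner made the counts was not settled, and neither was the library kit, named TruSeq Stranded in the methods and SMARTER in the labels. Reads that fit several genes were left out, so overlapping genes and near-identical copies are uncertain. Symbols came from Ensembl 116 for 56017 of 56748 genes, and 74 symbols stand for several identifiers.

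Computations used R 4.3.3, edgeR 4.0.16 (TMM, filterByExpr, quasi-likelihood test, Benjamini-Hochberg), limma 3.58.1 and DESeq2 1.42.0. A gene was called with an adjusted p below 0.05 and a log2 difference of more than 0.5 in size. The contrast took Bell-W minus the mean of Bell-L and Bell-B on the log2 scale. Shares of counts were compared by an exact permutation test, two-sided. CPM are counts per 1000000, TMM-normalized. The scripts were tested on simulated data. The methods state 36 embryos from 3 pregnant mice.

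Named genes are the 10 in each direction with the largest difference among those above or below both parts (average log2 CPM at least 2, no predicted gene name, all Bell-W libraries outside the parts), up to 4 members of each of 30 lists with the lowest adjusted p, the tested side genes of the study, B2m, and the 5 in each direction of largest stage difference. Rn18s-rs5, Xist, Chrna1, Epcam, Cdh1, Krt5 and Krt14 were named after their values were seen. Results for some genes are not reported here. The comparison, the lists and the genes were chosen with earlier results of these data known. Alternatives were RLE scaling, DESeq2, filters, all 24 libraries, a block for the replicate number, the table without its 100 most abundant genes, a linear mean of the parts, other fold thresholds, each library left out, and, added after the values were seen, limma voom with a quality weight per group.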

Additional observations from a re-analysis of the deposited data

Results flagged for a closer look

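For 10 genes the difference of the whole from its parts changed between the bell and cap stages, by a test of the change itself in edgeR over 18 libraries. It was more positive at the bell for Atp6v0d2, a proton pump subunit of osteoclasts, by log2 5.08 ± 0.31 (SE), for Scg2, a secretogranin, by 3.99 ± 0.17, for Ibsp, bone sialoprotein, by 3.92 ± 0.43, for Gria2, a glutamate receptor subunit, by 3.80 ± 0.37, and for Fgf3 by 3.78 ± 0.29. The bell difference alone was small for some of these. Over the alternative fits it ran from 0.66 to 0.93 for Atp6v0d2, 0.35 to 0.68 for Scg2 and -0.21 to 0.60 for Gria2. At the bell Ibsp was level with its parts (65.0, 118 and 65.7 CPM against 72.6 to 78.0), and at the cap it was at 1.02, 8.97 and 3.39 CPM against 36.1 to 123. The difference was more negative at the bell for Hand2 (-7.80 ± 2.07, adjusted p = 0.015), Pax7 (-5.33 ± 0.62), Mybpc1 (-5.01 ± 0.31), Isl1 (-4.16 ± 0.60) and Tnnt2 (-4.05 ± 0.33). Hand2 rested on 1 count in the Bell-W libraries, and in Cap-W its libraries held 3.17, 35.8 and 8.21 CPM. Groups of 3 libraries are too small for the test of outlying samples.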

How the results depend on the processing

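A quality weight per group left 410 genes higher, 227 above both, and 763 and 543 in the stage difference (higher and lower at the bell). A linear mean of the parts left 469 higher. With no fold threshold 2252 were higher, 2468 lower, 975 above and 1163 below both, and 1609 lower in the stage difference. With a log2 threshold of 1 these were 443, 566, 224 and 293, with 844 and 392 in the stage difference. With at least 10 counts in every library 13 contractile and 4 progenitor genes were lower, since fewer were tested, and without the 100 most abundant genes 5 collagen genes. Leaving out 1 library gave 770 to 1443 higher, 1024 to 1919 lower, 225 to 790 above and 473 to 1081 below both, with the highest values without Bell-W replicate 3. The stage difference then held 1486 to 1838 and 765 to 1258, and the lists 11 to 14 collagen, 23 contractile and 9 to 11 progenitor genes lower. The share differences ran from -0.073 to 0.31 points (mitochondrial), 0.0050 to 0.0065 (histone) and 0.59 to 1.19 (Rn18s-rs5). With 2 Bell-W libraries against 6 the exact test of a share cannot reach 0.05, so the p of the histone share without 1 of them says nothing. Other causes were not tested.

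The replicate numbers pair no samples by the check: of 9 same-numbered pairs 0 correlated over 0.1 (-0.076 to 0.042), and 3 of 9 libraries correlated best with their own number. With the replicate number as a block 769 genes were higher, 1126 lower, 303 above and 536 below both, and 1560 and 860 in the stage difference, with 13 collagen, 23 contractile and 9 progenitor genes lower. Among the named genes 12 values turned sign: Xist (-0.18, -0.36 and -0.94 with the block, with weights and without Bell-W replicate 1), Agt (-0.034, -0.075, -0.61 without replicate 3, and -0.44 with the linear mean), Postn (-0.028 without replicate 1, -0.037 with the linear mean), Gria2 (-0.21 without replicate 1), Ibsp (-0.20 without replicate 2) and Snhg11 (-1.01 without replicate 3). Without 1 library these genes reached at most 0.60 (Xist), 0.44 (Agt), 0.28 (Postn), 0.60 (Gria2), 0.29 (Ibsp) and 3.84 (Snhg11). Of the other values 1600 kept direction and call, 44 lost and 7 gained the call. Of the list counts, 885 stayed within 1.5 times and 141 did not.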
